A study of Mus musculus with 8 samples.

Results

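The genes described here make leukotrienes and prostaglandins, lipid mediators derived from arachidonic acid, and were followed in tuft cells sorted from the mouse small intestine. They are 10 genes chosen by their place in the pathway, out of 53655 gene symbols counted. The leukotriene arm holds Alox5, Alox5ap, Ltc4s, Mgst2 and Mgst3, the prostaglandin arm holds Ptgs1, Hpgds and Ptges, and the phospholipases are Pla2g4a and Pla2g16. All mice carried 1 Il25-RFP allele and a Chat-GFP transgene (Il25-RFP/+;Chat-GFP(Tg+)) and were naïve, and the labels give no age, sex or strain. Tuft cells, sorted as CD45-negative, EPCAM-positive and red for the Il25 reporter, were divided by green signal into a Chat-neg and a Chat-pos gate, with 4 libraries each. The gates follow reporter protein and not Chat mRNA, and every library comes from cells that already express the Il25 reporter. The contrast is thus between tuft cells with and without signal from the Chat reporter.

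Tuft cells are chemosensory cells of the gut epithelium that alert the type 2 immune system to parasites. Beside the cytokine IL-25 they release cysteinyl leukotrienes and prostaglandins. Synthesis starts when a phospholipase frees arachidonic acid from membranes. The lipoxygenase Alox5, helped by the membrane protein Alox5ap, turns it into an unstable leukotriene that Ltc4s joins to glutathione. Mgst2 and Mgst3 are membrane glutathione transferases of the same protein family as Ltc4s and Alox5ap. In the other arm the cyclooxygenase Ptgs1 makes the prostaglandin precursor, from which Hpgds makes prostaglandin D and Ptges makes prostaglandin E.

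Counts in named genes ran from 87642 to 1176880 in Chat-neg and from 1757401 to 2541955 in Chat-pos, so depth did not overlap between the gates, and Chat-neg replicate 1 was the shallowest. Chat mRNA was higher in Chat-pos (log2 difference 1.46 ± 0.21, SE; edgeR adjusted p = 6.28e-05), as was Il25 (1.12 ± 0.26), and Epcam did not pass (0.38 ± 0.20, edgeR adjusted p = 0.289). Ptprc, which encodes CD45, stood at 266 ± 34.2 CPM in Chat-neg and 551 ± 84.2 CPM in Chat-pos. It was also higher in Chat-pos (0.99 ± 0.20, edgeR adjusted p = 0.00313), although both gates were sorted as CD45-negative. The sort read CD45 protein and not this transcript, and which cells the transcript came from was not tested. All 14 tuft markers, a list that includes Alox5 and Ptgs1, were detected, and their summed level was 9334 to 18110 CPM in Chat-neg and 24380 to 25370 CPM in Chat-pos. CPM express each count relative to the named-gene total of its library, after TMM scaling. Enterocyte markers, led by Fabp1 and Apoa1, summed to 19090 to 44410 CPM in Chat-neg and 32790 to 54100 CPM in Chat-pos. Paneth cell markers, led by Defa24 and Lyz1, reached 46990 and 26940 CPM in Chat-pos replicates 2 and 3 and lay between 414.6 and 2743 CPM elsewhere. Goblet cell markers, led by Zg16 and Tff3, summed to 455.8 to 5398 CPM in Chat-neg, with the highest sum in replicate 3, and to 301.5 to 1543 CPM in Chat-pos. Of these 7 markers 1 passed, Clca1, named here after its values were seen, which was lower in Chat-pos (-3.06 ± 0.55, edgeR adjusted p = 0.00978), and their median log2 difference was -2.01. Enteroendocrine markers, led by Chgb and Tac1, summed to 654.4 CPM in Chat-neg replicate 4 and to at most 56.8 CPM in the other libraries. Leukocytes also make eicosanoids. Of 10 mast cell markers 8 had at most 3 counts in every library, Cpa3, Tpsb2 and Fcer1a among them, and Kit, at 59.5 ± 39.9 CPM in Chat-neg and 109 ± 26.6 CPM in Chat-pos, made up most of that list. All 7 eosinophil and neutrophil markers had at most 3 counts in every library, and macrophage and dendritic markers, led by Adgre1 and C1qb, summed to 9.77 to 72.5 CPM. Markers of T cells and intraepithelial lymphocytes, led by Gzma and Ccl5, summed to 203.6 to 468.0 CPM in Chat-neg, to 435.6 CPM in Chat-pos replicate 2 and to 11.2 to 14.9 CPM in the other Chat-pos libraries.

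Of the 10 genes, 9 had enough counts to be tested, and 1 of these, Mgst3, was higher in Chat-pos while none was lower (edgeR's quasi-likelihood test, Benjamini-Hochberg adjusted p under 0.05). Among all 8919 genes tested, 3.62% were called higher and 2.87% lower, or 6.49% in either direction. The Chat-pos libraries all lay above the Chat-neg libraries for 4 of the 9 genes, namely Mgst3, Ptgs1, Hpgds and Pla2g16, and such separation was seen in 9.23% of all tested genes. The median log2 difference was 0.30 over the 9 genes and -0.02 over all genes tested. In bulk libraries such as these, fewer cells of a type and less RNA per cell cannot be told apart.

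**Figure D1:**
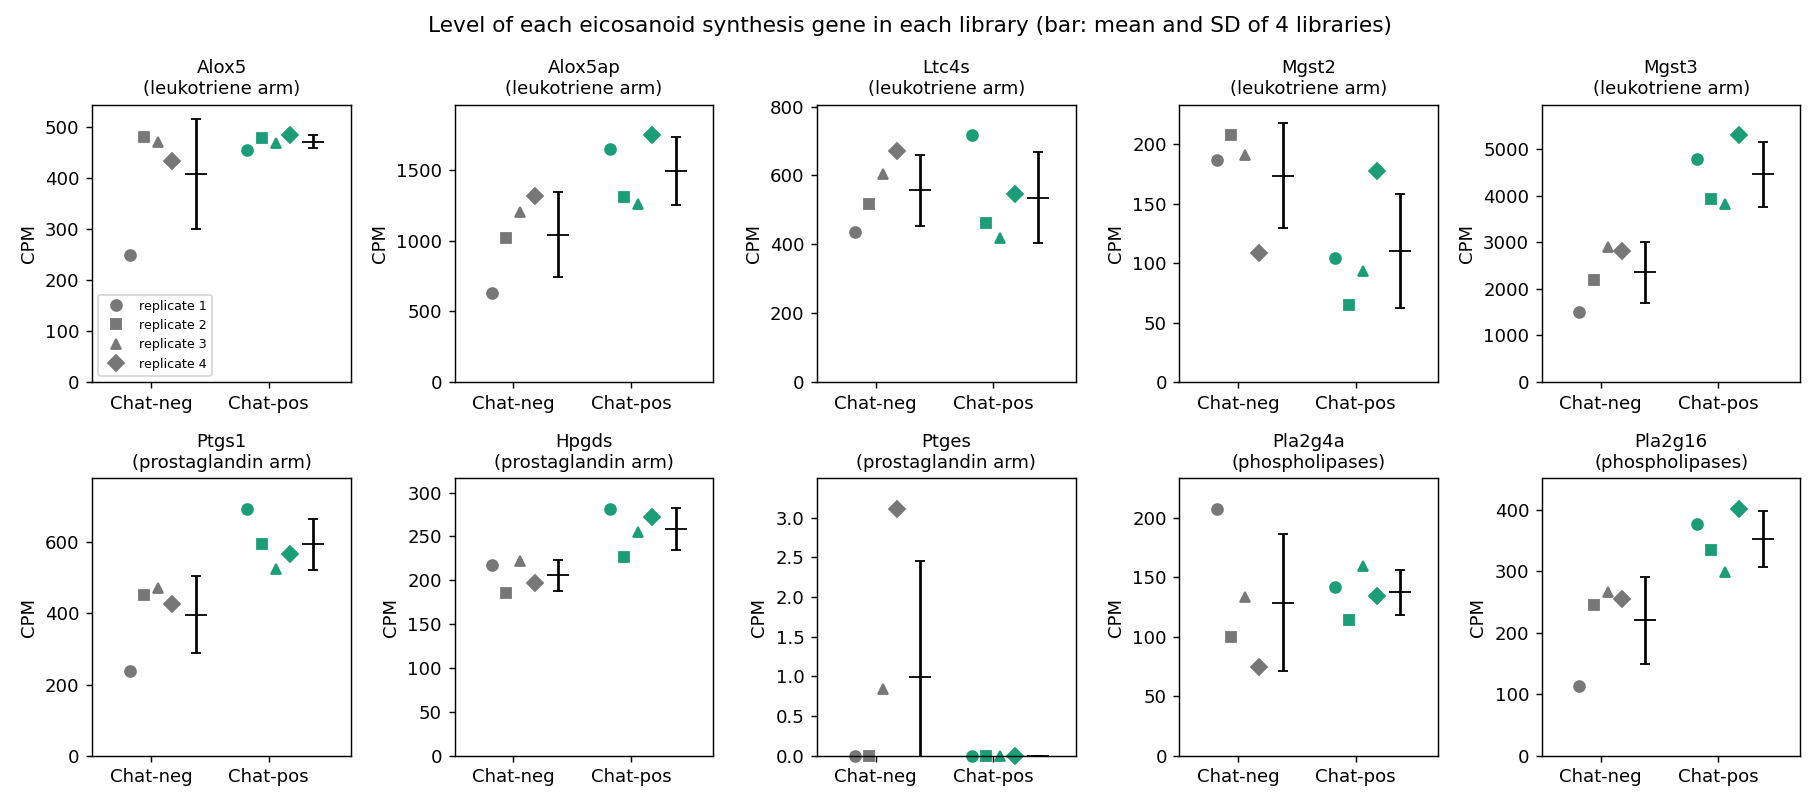
Level of each of the 10 genes in CPM (vertical axes, each from 0) in the 4 Chat-neg and 4 Chat-pos libraries, with replicates as separate symbols and the mean and SD beside them. Mgst3 is the gene whose difference passed the test, with Chat-neg libraries from 1492 to 2906 CPM and Chat-pos libraries from 3817 to 5290 CPM.

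Per length of exon, Mgst3 was the most abundant of the 10 genes in all 8 libraries, followed in each library by Alox5ap and Ltc4s. Mgst3 had a mean of 3102 CPM per kilobase over the 8 libraries (range 1360 to 4822), Alox5ap 894 (445 to 1231) and Ltc4s 538 (412 to 706). Ptgs1, at 128 (61.3 to 178), and Alox5, at 107 (60.6 to 118), followed, and Ptgs1 lay above Alox5 in 7 of 8 libraries. Pla2g16 (44.8), Mgst2 (38.3) and Hpgds (36.1) had overlapping ranges and changed places from library to library. Pla2g4a, at 20.8 (11.7 to 32.4), lay below Hpgds in all 8 libraries. Mgst3, Alox5ap and Ltc4s thus had more transcript per length than the lipoxygenase and the cyclooxygenase, and Mgst2, the other membrane protein of the arm, had less. Measured against the longest annotated transcript, whose length is shorter than the merged exons for 9 of the 10 genes, the mean for Ltc4s was 762, for Ptgs1 173, for Hpgds 59.6, for Pla2g4a 38.5 and for Pla2g16 81.4 CPM per kilobase, and Hpgds came before Mgst2 (50.6). On that scale Ltc4s (608) lay above Alox5ap (505) in Chat-neg replicate 1, and Mgst3 was still highest in all 8 libraries.

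**Figure D2:**
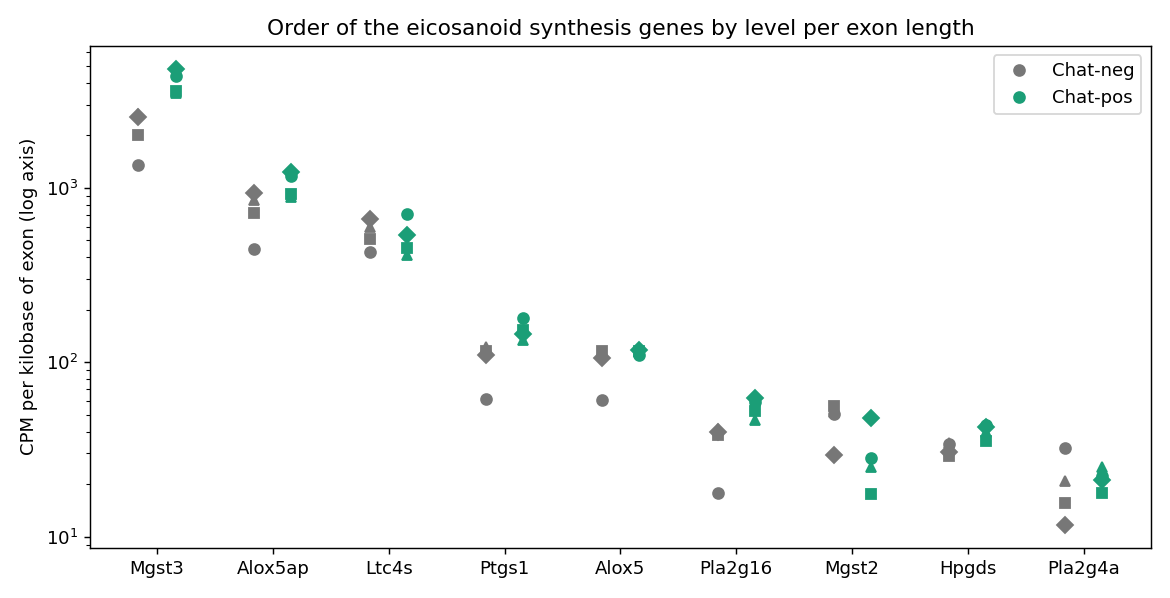
CPM per kilobase of exon on a log axis for 9 of the 10 genes, ordered by their mean over 8 libraries, with 4 Chat-neg and 4 Chat-pos libraries as separate points. Mgst3 lies on top in every library, from 1360 to 4822, and Ptges, with 3 counts in all, is left out.

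Mgst3, on the minus strand of chromosome 1 (ENSMUSG00000026688.5, 167371966 to 167393841 in GRCm38), encodes a glutathione transferase and peroxidase of internal membranes. Its level was 1492, 2198, 2906 and 2801 CPM in Chat-neg replicates 1 to 4 and 4780, 3937, 3817 and 5290 CPM in Chat-pos replicates 1 to 4. All Chat-pos libraries lay above all Chat-neg libraries, by a log2 difference of 0.88 ± 0.22 (SE; 95% interval 0.43 to 1.33; edgeR adjusted p = 0.0122). Without Chat-neg replicate 2 the adjusted p was 0.0974, without Chat-pos replicate 4 it was 0.0555, and it ran from 0.00521 to 0.0337 in the other 6 fits that left out 1 library. With both Paneth-rich libraries left out the difference was 1.16 ± 0.28 (edgeR adjusted p = 0.0136).

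Mgst2, a transferase that can also make leukotriene C, lies on chromosome 3 (ENSMUSG00000074604.9, 51660360 to 51682677, plus strand). It stood at 186, 207, 191 and 109 CPM in Chat-neg and at 104, 65.1, 93.3 and 178 CPM in Chat-pos. Chat-neg replicate 4 and Chat-pos replicate 4 each lay within the range of the other gate, and the difference of -0.68 ± 0.28 did not pass (95% interval -1.27 to -0.09; edgeR adjusted p = 0.171). Without Chat-pos replicate 4 it was -1.01 ± 0.25 and passed (edgeR adjusted p = 0.0132), and without the Paneth-rich libraries it was -0.22 (edgeR adjusted p = 0.766). Counted against each other within a library and per kilobase, Mgst3 exceeded Mgst2 27.0, 35.8, 51.2 and 86.9 times in Chat-neg and 154.5, 204.1, 138.0 and 100.5 times in Chat-pos. These ratios do not depend on the scaling of libraries, and those of the gates did not overlap; as the pair was set side by side with the values known, no test was made.

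The stretches before the start sites of both genes are shown because the gates differed in the balance of this pair, and those of Alox5 and Ptgs1 because they begin the arms. Each holds the 250 bases before the RefSeq start (GRCm38.p6), written 5′ to 3′ on the strand of the gene, with capitals for a TATA box (TATAAA), a GC box (GGGCGG) or a CCAAT box (CCAAT) on the gene's strand or the opposite one. The stretches lie at chr1:167393842-167394091 on the minus strand (Mgst3), chr3:51660929-51661178 on the plus strand (Mgst2), chr6:116461179-116461428 on the minus strand (Alox5) and chr2:36230176-36230425 on the plus strand (Ptgs1).
Mgst3: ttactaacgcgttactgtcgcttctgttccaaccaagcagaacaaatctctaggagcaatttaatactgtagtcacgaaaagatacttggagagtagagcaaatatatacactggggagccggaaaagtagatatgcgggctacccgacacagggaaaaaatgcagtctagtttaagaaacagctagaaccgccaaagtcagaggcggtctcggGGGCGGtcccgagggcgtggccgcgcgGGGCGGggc
Mgst2: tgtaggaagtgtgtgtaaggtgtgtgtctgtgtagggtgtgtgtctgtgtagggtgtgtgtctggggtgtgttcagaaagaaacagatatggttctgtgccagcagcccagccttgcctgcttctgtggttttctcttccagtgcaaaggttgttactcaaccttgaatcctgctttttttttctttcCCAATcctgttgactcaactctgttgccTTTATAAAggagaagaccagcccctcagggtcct
Alox5: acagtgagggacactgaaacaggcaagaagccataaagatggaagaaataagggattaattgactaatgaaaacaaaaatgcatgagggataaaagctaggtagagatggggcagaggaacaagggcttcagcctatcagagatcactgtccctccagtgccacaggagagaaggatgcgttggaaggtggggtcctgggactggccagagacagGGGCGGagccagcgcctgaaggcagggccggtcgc
Ptgs1: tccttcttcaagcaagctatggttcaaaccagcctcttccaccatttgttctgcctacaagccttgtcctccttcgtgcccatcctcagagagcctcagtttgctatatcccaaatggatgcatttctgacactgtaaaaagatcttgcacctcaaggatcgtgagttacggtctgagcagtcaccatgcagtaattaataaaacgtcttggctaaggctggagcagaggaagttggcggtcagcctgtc
The Mgst3 stretch holds 17 CG dinucleotides and 2 GC boxes, which begin 36 and 9 bases before the start, and has no TATA box by these letters. The Mgst2 stretch lies within the annotated span of the gene, which begins at 51660360 and holds 9 annotated transcripts. It thus precedes a start inside the gene and may not stand for its other starts. It holds no CG dinucleotide. It has 2 overlapping TATA matches, which begin 32 bases before the start on its own strand and 34 bases before it on the opposite strand, and a CCAAT box that begins 62 bases before it. Alox5 has 1 GC box, 35 bases before the start, and Ptgs1 has none of these motifs, and both stretches hold 5 CG dinucleotides. Over 32851 such stretches in the RefSeq table the median was 6 CG dinucleotides, and 12.4% hold a TATA box, 32.7% a GC box and 33.8% a CCAAT box. An octamer (ATGCAAAT), the kind of site that POU factors bind, was found in none of the 4 and in 1.6% of all stretches. The stretch of Hpgds has an octamer 174 bases before its RefSeq start. In that stretch 178 of the 250 bases, the octamer among them, lie in annotated exons of Hpgds. The letters CAGCTG were found in none of the 4 and in 13% of all stretches. These matches describe the letters of the windows.

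Alox5, the lipoxygenase that commits arachidonic acid to leukotrienes (chromosome 6, 116410077 to 116461178, minus strand), stood at 249, 479, 470 and 432 CPM in Chat-neg and at 454, 478, 469 and 483 CPM in Chat-pos. The values of 7 libraries lay within a narrow band, and the shallow Chat-neg replicate 1, with 24 counts, lay below it (95% exact Poisson interval 159 to 370 CPM, which covers counting error only). The difference was 0.14 ± 0.21 (95% interval -0.28 to 0.56; edgeR adjusted p = 0.753), and 0.03 without that library. Alox5ap, the membrane partner that presents arachidonic acid to Alox5 (chromosome 5, 149264767 to 149288153, plus strand), stood at 632, 1020, 1207 and 1321 CPM in Chat-neg and at 1651, 1311, 1265 and 1748 CPM in Chat-pos. Chat-pos replicates 2 and 3 lay below the highest Chat-neg library, and the difference of 0.47 ± 0.22 did not pass (95% interval 0.02 to 0.92; edgeR adjusted p = 0.218).

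Ltc4s, the synthase that makes leukotriene C (chromosome 11, 50236461 to 50238616, minus strand), stood at 435, 516, 604 and 670 CPM in Chat-neg and at 716, 460, 418 and 545 CPM in Chat-pos. The groups overlapped throughout, with the lowest and the highest value both in Chat-pos. Its difference was -0.11 ± 0.21 (95% interval -0.54 to 0.33; edgeR adjusted p = 0.829), and its sign turned without the Paneth-rich libraries (0.23). Against Ltc4s of the same library and per kilobase, Mgst3 stood at 3.17, 3.94, 4.45 and 3.87 in Chat-neg and at 6.17, 7.91, 8.44 and 8.96 in Chat-pos. Against Alox5ap it stood at 3.06, 2.79, 3.12 and 2.74 in Chat-neg and at 3.75, 3.89, 3.91 and 3.92 in Chat-pos. The gates did not overlap in either ratio, and the spread within a gate was small for Mgst3 to Alox5ap (SD 0.19 and 0.08). Mgst3, the gene that passed the test, is the numerator of both ratios. With Mgst3 set aside, the other 4 genes of the arm summed to 2182 ± 473 CPM in Chat-neg and 2610 ± 383 CPM in Chat-pos and overlapped between the gates.

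**Figure D3:**
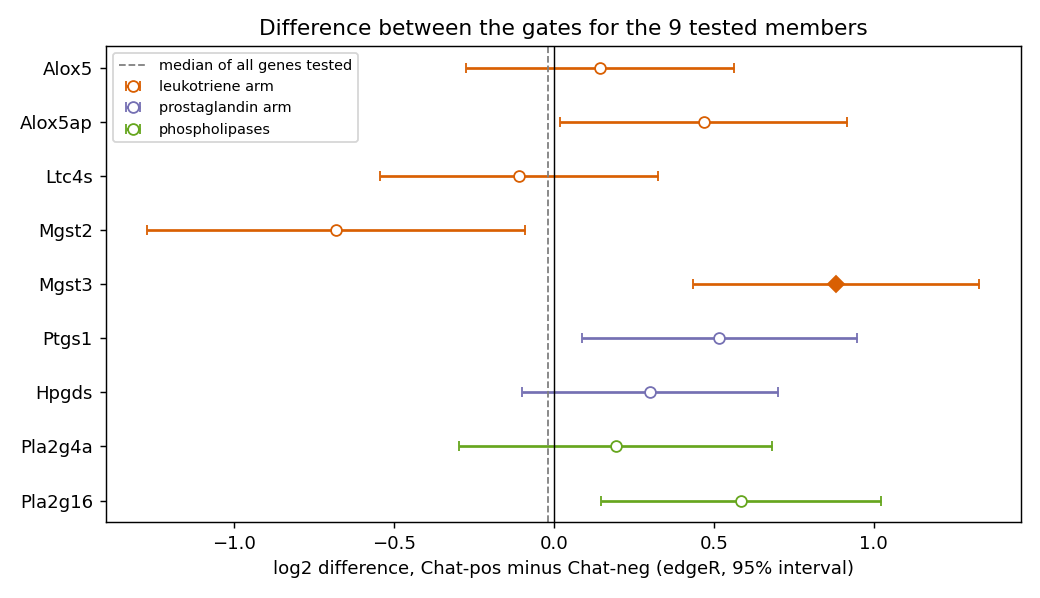
Log2 difference between the gates (Chat-pos minus Chat-neg, edgeR) with its 95% interval for the 9 tested genes, colored by arm, with a filled diamond for the gene that passed and a dashed line at the median of all genes (-0.02). Mgst3 (0.88) and Mgst2 (-0.68) stand at opposite ends, both in the leukotriene arm.

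Neither tested gene of the prostaglandin arm passed. Ptgs1, the constitutive cyclooxygenase (chromosome 2, 36230426 to 36252272, plus strand), stood at 238, 451, 472 and 426 CPM in Chat-neg and at 693, 596, 523 and 566 CPM in Chat-pos. All Chat-pos libraries lay above all Chat-neg libraries, but the difference of 0.52 ± 0.21 did not pass (95% interval 0.09 to 0.95; edgeR adjusted p = 0.147). Hpgds, the synthase of prostaglandin D (chromosome 6, 65117293 to 65144908, minus strand), stood at 218, 185, 222 and 197 CPM in Chat-neg and at 281, 226, 255 and 272 CPM in Chat-pos. Its groups were separated by a narrow margin, and the difference of 0.30 ± 0.20 did not pass (95% interval -0.10 to 0.70; edgeR adjusted p = 0.414). Ptges, the inducible synthase of prostaglandin E (chromosome 2, 30889471 to 30929863, minus strand), had 0, 0, 1 and 2 counts in Chat-neg and 0 in each Chat-pos library. A count of 0 in the Chat-pos libraries together allows up to 0.354 CPM, and 3 counts in Chat-neg together are 1.10 CPM, so no fold is given. Of the prostaglandin synthases in the panel, the Hpgds transcript was therefore present in every library, with 21 to 657 counts, and that of Ptges was at the limit of detection. This holds for Ptges and not for all prostaglandin E synthases. Ptges2 and Ptges3, outside the panel and named after their values were seen, had 53 and 99 counts over the Chat-neg libraries together. Over those of Chat-pos they had 133 and 248 counts, and neither passed (edgeR adjusted p = 0.694 and 0.54).

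Across the arms, Alox5 and Ptgs1 compete for the same substrate and are compared within each library. Their ratio per kilobase of exon was 0.99, 1.01, 0.94 and 0.96 across Chat-neg, against 0.62, 0.76, 0.85 and 0.81 in Chat-pos. The ratio was lower in each Chat-pos library than in any Chat-neg library. In the shallow Chat-neg replicate 1 it rested on 24 counts of Alox5 and 23 of Ptgs1. No test of this ratio was made. Its level depends on the lengths used, and the order of the libraries does not. The ratio of Hpgds to Ptgs1 overlapped, at 0.55, 0.25, 0.28 and 0.28 across Chat-neg, against 0.25, 0.23, 0.30 and 0.29 in Chat-pos. The ratios of Mgst2 to Ltc4s, Alox5ap to Alox5, Ltc4s to Alox5 and Pla2g16 to Pla2g4a, also computed, overlapped too. How often the ratios of other gene pairs separate the gates was not examined. By summed level, Chat-neg first, the leukotriene arm had 4531 ± 1116 CPM against 7066 ± 1076 CPM in Chat-pos (SD, n = 4), the prostaglandin arm 603 ± 103 against 853 ± 84.2 CPM, and the phospholipases 349 ± 35.3 against 491 ± 43.4 CPM. The median log2 difference was 0.14 over the 5 genes of the leukotriene arm, 0.41 over the 2 tested genes of the prostaglandin arm and 0.39 over both phospholipases. No test was made between the arms.

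**Figure D4:**
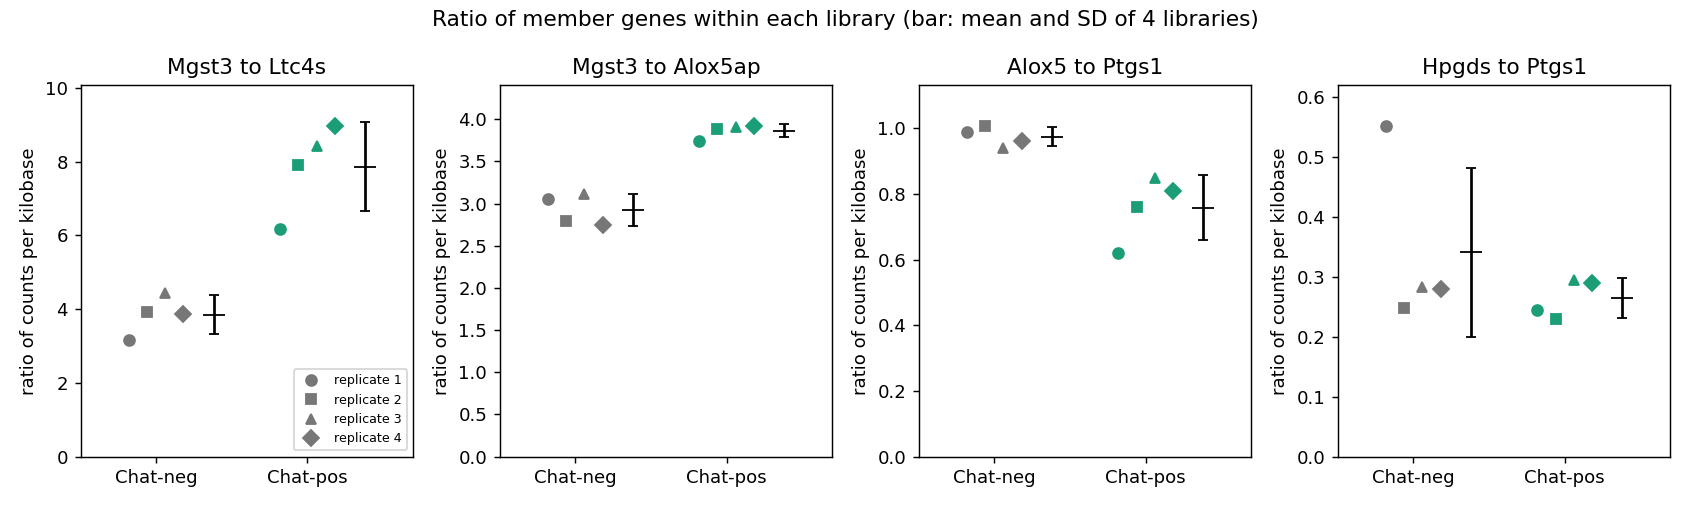
Ratio of counts per kilobase of 2 genes within each library (vertical axes from 0) for Mgst3 to Ltc4s, Mgst3 to Alox5ap, Alox5 to Ptgs1 and Hpgds to Ptgs1, with the mean and SD of 4 libraries beside the points. The gates are separate in the left 3 panels and overlap for Hpgds to Ptgs1. Further pairs, which overlapped or set Mgst3 against Mgst2, are not drawn.

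The phospholipases are the source of free arachidonic acid. Pla2g16, a small phospholipase now also called Plaat3 (chromosome 19, 7557459 to 7588545, plus strand), stood at 114, 246, 266 and 255 CPM in Chat-neg and at 378, 334, 300 and 401 CPM in Chat-pos. The gates were separate, and the difference of 0.59 ± 0.21 did not pass with edgeR (95% interval 0.15 to 1.02; edgeR adjusted p = 0.100), while DESeq2 passed it (0.57, DESeq2 adjusted p = 0.0481). Pla2g4a, the calcium-dependent cytosolic phospholipase (chromosome 1, 149829618 to 149961290, minus strand), stood at 207, 100.02, 133 and 74.6 CPM in Chat-neg and at 142, 114, 160 and 134 CPM in Chat-pos. Chat-neg held both its lowest and its highest library, the highest being the shallow replicate 1 with 20 counts (95% exact Poisson interval 127 to 320 CPM), and the difference was 0.19 ± 0.24 (95% interval -0.30 to 0.68; edgeR adjusted p = 0.713).

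The summed level of tuft markers itself did not overlap between the gates, so the 10 genes were also set against it. Per 1000 counts of the 12 tuft markers outside the panel, Mgst3 had 169, 148, 169 and 189 counts across Chat-neg, against 197, 167, 163 and 224 in Chat-pos. On that scale the gates overlapped for Mgst3. Alox5, whose difference in CPM did not pass, had 28.1, 32.4, 27.4 and 29.1 counts across Chat-neg, against 18.8, 20.2, 20.04 and 20.4 in Chat-pos, and all Chat-pos libraries lay lower. Ltc4s likewise had 34.9 to 49.2 in Chat-neg and 17.9 to 29.6 in Chat-pos, and Hpgds 12.5 to 24.6 and 9.57 to 11.6. Mgst2 and Pla2g4a overlapped. Ptgs1 had 26.9 to 30.4 and 22.4 to 28.6, Alox5ap 68.9 to 89.1 and 54.1 to 73.8, and Pla2g16 12.9 to 17.2 and 12.8 to 17.0, each with overlap. Of the 12 markers, 7 were themselves higher in Chat-pos, among them the abundant Sh2d6 (0.93 ± 0.21), and 1, Gng13, was lower. The sum of the 12 was 8847 to 17170 CPM in Chat-neg and 23380 to 24230 CPM in Chat-pos. A gene with equal CPM in both gates thus comes out lower in Chat-pos on this scale. The share of all genes that separate on it was not computed. Against Dclk1, Trpm5, Pou2f3 and Avil, the 4 of the 12 that did not pass the test, a choice made after seeing the data, Mgst3 had 428 to 569 counts per 1000 in Chat-neg and 620 to 957 in Chat-pos. There the gates were again separate for Mgst3 and for Ptgs1 (72.6 to 87.7 and 90.0 to 102.3). They overlapped for the other genes of the panel, among them Alox5, Ltc4s and Hpgds (36.03 to 66.25 and 35.6 to 49.21 for Hpgds). Summed levels of these 4 markers were 3284 to 5529 CPM in Chat-neg and 5530 to 6927 CPM in Chat-pos. The part of these marker levels, and of the enterocyte markers given above, in the difference of Mgst3 was not tested.

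**Figure D5:**
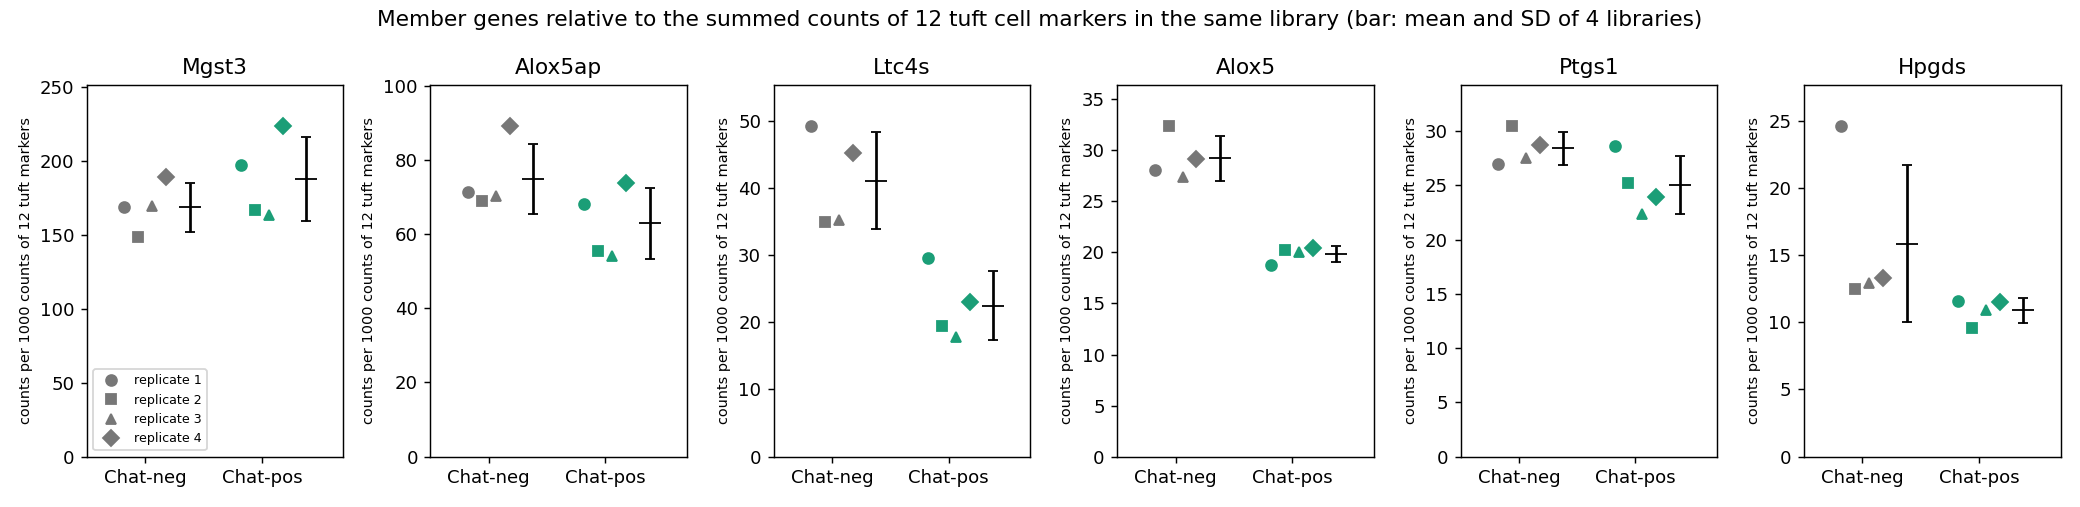
Counts of 6 genes per 1000 summed counts of 12 tuft markers in the same library (vertical axes from 0), by gate, with the mean and SD of 4 libraries. Alox5, Ltc4s and Hpgds are lower in every Chat-pos library, and Mgst3, Alox5ap and Ptgs1 overlap between the gates. The summed markers were themselves higher in every Chat-pos library, so a gene with equal CPM in both gates comes out lower here.

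Beyond the panel, 71 further genes of eicosanoid handling in 9 lists were read from the same fit. Of these 32 were tested, 1 was higher and none lower in Chat-pos, with a median log2 difference of 0.06. Over all 8919 genes tested 3.62% were called higher and 2.87% lower, so 1 of 32 is close to the share of all genes. The gene called was Akr1b3, an aldose reductase that can also form prostaglandin F. It had 51.8, 20.99, 37.9 and 46.6 CPM in Chat-neg and 48.9, 90.2, 82.2 and 73.7 CPM in Chat-pos (1.00 ± 0.28, edgeR adjusted p = 0.0252). Chat-pos replicate 1, with 80 counts, lay inside the Chat-neg range, whose top was the shallow Chat-neg replicate 1 with 5 counts. Leaving out any 1 of Chat-neg replicates 2 and 3 and Chat-pos replicates 2 and 3 ended the call (edgeR adjusted p of 0.0672 to 0.189), as did total count scaling (0.0558) and the fit without both Paneth-rich libraries (0.180).

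Among 9 prostanoid synthases 6 were tested. The most abundant per length were Cbr1, a carbonyl reductase, at 146 ± 58.7 CPM in Chat-neg and 172 ± 36.9 CPM in Chat-pos (edgeR adjusted p = 0.844), and Fam213b, a synthase of prostaglandin F, at 47.2 ± 16.5 and 29.9 ± 10.3 CPM (-0.73 ± 0.30, edgeR adjusted p = 0.146). Ptgs2, the inducible cyclooxygenase, picked out after its values were seen, stood at 41.4, 6.17, 35.4 and 46.6 CPM in Chat-neg and 67.2, 52.4, 51.1 and 78.3 CPM in Chat-pos. Its gates were separate, but the difference of 1.02 ± 0.39 did not pass (edgeR adjusted p = 0.146), except without a filter on low counts (1.22 ± 0.31, edgeR adjusted p = 0.0122). Of 4 genes that take up or inactivate prostaglandins, none passed. Hpgd, the dehydrogenase that begins their breakdown, had 20.7, 109.9, 129.9 and 62.2 CPM in Chat-neg and 102.0, 175.5, 233 and 235 CPM in Chat-pos (0.99 ± 0.35, edgeR adjusted p = 0.134), and passed without Chat-pos replicate 1 (1.19, edgeR adjusted p = 0.0157), without a filter on low counts (1.21, edgeR adjusted p = 0.0026) and with DESeq2 (1.04, DESeq2 adjusted p = 0.0169). Ptgr1, a reductase of prostaglandins and leukotrienes, had 44.1 ± 24.3 and 23.8 ± 20.2 CPM (edgeR adjusted p = 0.464).

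In the list of leukotriene handling 5 of 9 genes were tested and none passed. Mgst1, the founding member of the Mgst genes, had 238.3, 238.3, 409 and 207 CPM in Chat-neg and 14.05, 69.95, 158 and 246 CPM in Chat-pos, a spread that left its difference of -1.21 ± 0.79 unresolved (edgeR adjusted p = 0.469). Dpep1, a dipeptidase that trims cysteinyl leukotrienes, had 55.8 ± 15.3 and 57.5 ± 13.5 CPM (edgeR adjusted p = 0.885). None of the 6 other lipoxygenases reached the tested set, and the most abundant of them per length, Alox12b and Aloxe3, had 6 and 4 counts over the Chat-neg libraries together and 7 and 15 over those of Chat-pos. Alox5 was thus the 1 lipoxygenase of the 7 listed that was measured at depth.

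Of 14 other phospholipases A2, 5 were tested and none passed. Pla2g2a, a secreted phospholipase of Paneth cells, had 282 and 85.9 CPM in the Paneth-rich Chat-pos replicates 2 and 3 and 1.55 to 10.96 CPM in the other 6 libraries. GENCODE M21 lists Pla2g2a as a polymorphic pseudogene. As the labels give no strain, whether its transcript encodes the enzyme in these mice is not known. Pla2g6 had 48.7 ± 10.2 and 52.1 ± 9.47 CPM (edgeR adjusted p = 0.792). In the list of arachidonate remodelling 7 of 11 were tested and none passed, with Mgll, which releases fatty acids from monoacylglycerols, at 223 ± 35.3 and 278 ± 43.8 CPM (edgeR adjusted p = 0.529) and Lpcat3, which places arachidonate into membranes, at 62.4 ± 15.6 and 72.6 ± 12.5 CPM (edgeR adjusted p = 0.657). The 4 kinases were tested without a call, with Mapk3 at 399 ± 57.0 and 342 ± 57.0 CPM (edgeR adjusted p = 0.490).

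Most receptors for these mediators had few counts. None of 5 leukotriene receptor genes could be tested, and the most abundant per length, Ltb4r1 and Ltb4r2, had 2 and 3 counts over the Chat-neg libraries together and 16 and 17 over those of Chat-pos. Of 9 prostanoid receptor genes 1 was tested. Ptger4, a receptor of prostaglandin E, had 31.1, 12.3, 7.59 and 13.99 CPM in Chat-neg and 6.72, 6.16, 3.72 and 4.14 CPM in Chat-pos. All Chat-neg libraries lay above all Chat-pos libraries (4.72% of all tested genes did so), and the difference of -1.31 ± 0.55 did not pass (edgeR adjusted p = 0.159). Tbxa2r, the thromboxane receptor, had 2 counts over the Chat-neg and 5 over the Chat-pos libraries.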

How the data were processed

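Tuft cells were sorted into SMARTer v4 lysis reagents, and Nextera XT libraries were sequenced in 74 single-read cycles, per the labels' protocols. The authors deposited a table of counts per gene symbol. The submitters' processing notes name GRCm38; for aligner, counting tool and annotation, these were not given in the sources used here. Strand and molecular identifiers are not stated in those sources. The 36 rows without a gene name were left out. They held 67.8% to 88.4% of all counts per library in Chat-neg and 58.6% to 64.6% in Chat-pos, so this share did not overlap between the gates. Rows sharing a symbol were summed.

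The test was that of edgeR 4.0.16 under R 4.3.3 (TMM, filterByExpr, robust quasi-likelihood fit with gate as the only term, Benjamini-Hochberg adjustment over 8919 genes, threshold 0.05). SE is the log2 difference over the root of F. Levels use totals of all named genes and the fit those of tested genes. DESeq2 1.42.0, limma 3.58.1, other scalings and filters, the replicate block and left-out libraries were alternatives. Positions and exon lengths came from GENCODE M21. Exons of Alox5ap, Ltc4s, Ptgs1, Fam213b, Lpcat3, Mgll and Ptger4 overlap a gene on the opposite strand. For the first 3 of these the partner had 10 to 39 counts per gate, against 1222 to 12626; the others are uncertain. The labels do not tie libraries to animals, so p-values measure the spread between libraries, which may be technical. Libraries of a gate differed by more than counting noise. Besides the 10 genes, the text names pathway genes that passed, the 2 most abundant per list, sort checks and the 2 leading markers of lists it describes; some of these are not reported here. Genes and lists were chosen with earlier results of these data known.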

Additional observations from a re-analysis of the deposited data

Results flagged for a closer look

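In 59 sets of 4 libraries (1 gene in 1 gate), 3 had a library whose gap to its neighbour, as a share of the whole range (0.864, 0.844 and 0.925), was above the critical value of Dixon's test; chance alone gives about 1 in 20. Pla2g16 stood at 114.0 CPM in Chat-neg replicate 1, on 11 counts, with the other Chat-neg libraries between 246 and 266 CPM. Mgst1 stood at 409.0 CPM in Chat-neg replicate 3, with the others between 207 and 238.3 CPM. Aloxe3 stood at 20.7 CPM in Chat-neg replicate 1, which is 2 counts.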

How the results depend on the processing

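Over all genes 323 were higher and 256 lower in Chat-pos. Leaving out 1 library gave 138 to 360 higher and 110 to 309 lower; no filter on low counts gave 143 lower, leaving out the Paneth-rich libraries 86, and leaving out Chat-neg replicate 1 as well, chosen after seeing the data, 143. With total count scaling 37.2% of calls were higher, against 55.8%, and the median of all genes was -0.14; without a filter the median was -0.34. Of the 10 genes, 9 of them tested, 1 was higher and 0 lower. At an unadjusted edgeR p under 0.05 there were 5 of the 9, and 1855 of all 8919 genes tested. DESeq2 called 2 of the panel higher, and leaving out 1 library gave 0 to 1 higher and 0 to 1 lower. In the wider pathway 1 was higher: 2 with DESeq2 or the replicate block, 3 without a filter, 0 with total count scaling, without the Paneth-rich libraries or without these and Chat-neg replicate 1, and 0 to 2 when 1 library was left out. The difference of Ltc4s was 0.13 without a filter, 0.23 without the Paneth-rich libraries, 0.12 without these and the shallowest library, and -0.28 to 0.018 when 1 library was left out. Dpep1 was at -0.022 and Cbr1 at -0.014 with total count scaling, and at -0.042 to 0.24 and -0.057 to 0.35 when 1 library was left out. Pla2g2a was at -1.08 without the Paneth-rich libraries. The causes were not tested. Il25 missed the threshold without the Paneth-rich and shallowest libraries (1.07, edgeR adjusted p = 0.0504). Mgst3 lay between 0.75 and 1.16 and passed in every alternative except 2, in which Chat-neg replicate 2 (0.88) and Chat-pos replicate 4 (0.80) were left out. The replicate numbers gave no clear sign of pairing (correlations of deviations 0.0535, 0.0331, -0.0233 and -0.0102, and not every library was closest to its own number). With so few libraries this cannot exclude that those of the same number share animals. With the replicate block 290 genes were higher and 230 lower, Mgst3 was at 0.90 (edgeR adjusted p = 0.0367), and Hpgd passed (1.18, edgeR adjusted p = 0.00577). Depth limits Ptges, most receptors and all values of Chat-neg replicate 1.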
